A study of Mus musculus with 9 samples.

Results

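A-kinase anchoring proteins are scaffolds that hold protein kinase A (PKA), the kinase switched on by cyclic AMP (cAMP), at a chosen place in the cell, together with phosphodiesterases, phosphatases and other kinases. A short amphipathic helix in each scaffold binds the regulatory subunits of PKA, and the rest of the protein sets the address. In hepatic stellate cells, which store vitamin A along the liver sinusoids and turn into matrix-producing myofibroblasts after injury, cAMP signalling through PKA is known to oppose activation and contraction. Described here are 8 genes of this family, Akap12, Akap6, Akap1, Akap8, Akap9, Akap10, Akap11 and Akap13, out of 35022 gene names in the deposited table. They were found by name, and all 8 passed the filter on low values in both fits. Akap12 and Akap6 were chosen by their deposited expression values, because they were lower in YAP-deleted libraries in the 7-library fit described below, so their values in that contrast are given as a description with no test. The other 6 were taken as further family members.

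The study compared stellate cells from mice with floxed Yap1 alleles (YAP f/f, C57BL/6J background, no Cre, labelled control, 5 libraries) with cells from mice that also carry LratCre (YAP f/f, LratCre+, labelled YAP-deleted, 4 libraries). All mice received carbon tetrachloride, a hepatotoxin, 6 times by intraperitoneal injection (0.5 mg/kg) at intervals of 3 days, and cells were sorted by retinoid autofluorescence 2 days after the last dose. The age of the mice was not stated. The Lrat promoter that drives the Cre is active in stellate cells, and the labels give the Cre for the YAP-deleted group alone. Effects of carrying Cre and of losing Yap1 therefore cannot be told apart. The labels do not say that each library came from its own mouse, so a p-value reflects variation among libraries that may be technical.

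Library totals ran from 14052502 to 31816055 recovered counts, and a normalised count below is a recovered count divided by the size factor of its library. Yap1, the floxed gene, had 2902 normalised counts in LYT004, 2915 in LYT005, 3653 in LYT015 and 3551 in LYT017, all labelled control. It had 642 in LYT006, 648 in LYT008 and 645 in LYT016, all labelled YAP-deleted. The library labelled YAP-deleted LYT013 had 2530 and the library labelled control LYT014 had 618, against their labels. Results are therefore given for the 9 libraries as labelled and for the 7 without LYT013 and LYT014, and no library was moved to another group. The stellate cell markers were present throughout, with Lrat between 35209 and 69555 normalised counts and Dcn between 219271 and 339089, while the hepatocyte gene Alb stayed between 179.8 and 763.5. In bulk RNA, fewer cells of a type and less RNA per cell cannot be told apart.

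Promoter sequences are shown first, because Akap6 is the member with the lower level in the YAP-deleted libraries that has a RefSeq promoter entry (GRCm38.p6, 250 bases before to 50 after the start). Of the 8 genes, 7 had an entry, and these held 10 promoters. One of the Akap11 entries is shown beside it, as the entry among the 10 that matched a searched motif. The motifs were GGAATG, the core bound by TEAD factors (the DNA-binding partners of YAP), TGACGTCA, the full cAMP response element, and its shorter form TGACG, each on both strands. The full element contains the shorter form. Capitals mark matches to TGACG or its reverse complement CGTCA, and Akap6 has none. The promoters are Akap6 at chr12:52699133-52699432 (plus strand) and Akap11 at chr14:78536811-78537110 (minus strand), each written in the direction of transcription.
Akap6: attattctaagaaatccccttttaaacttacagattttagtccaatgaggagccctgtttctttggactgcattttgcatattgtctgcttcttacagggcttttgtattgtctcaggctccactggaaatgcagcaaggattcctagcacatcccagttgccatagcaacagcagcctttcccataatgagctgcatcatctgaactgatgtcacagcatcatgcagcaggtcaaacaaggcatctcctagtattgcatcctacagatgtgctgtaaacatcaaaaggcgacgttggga
Akap11: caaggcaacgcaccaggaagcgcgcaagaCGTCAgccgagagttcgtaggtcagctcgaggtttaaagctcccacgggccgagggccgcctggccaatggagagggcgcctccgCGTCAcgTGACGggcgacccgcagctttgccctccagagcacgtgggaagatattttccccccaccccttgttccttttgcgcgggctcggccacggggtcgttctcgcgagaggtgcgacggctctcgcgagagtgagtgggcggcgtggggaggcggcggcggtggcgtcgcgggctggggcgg

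No entry of the 7 genes held GGAATG, which occurs in 14.7% of the 32851 promoters in the table. None held the full element, which occurs in 1.79%, and the Akap11 entry shown held the shorter form at 3 places, against 20.8% of promoters with at least 1. The Akap6 promoter was 43.7% G and C, against a median of 52.7% over all entries, and the Akap11 promoter shown was 69.0%. These are counts of letters in short windows.

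Akap12 was the lowest of the 8 per transcript length and had the widest spread between libraries. It encodes gravin (SSeCKS), a plasma membrane scaffold that binds PKA, protein kinase C and the beta-adrenergic receptor and restrains Src. The gene lies on chromosome 10 at 4266380 to 4359470 (GRCm38, plus strand). In the control libraries it had 234.3 normalised counts in LYT004, 204.8 in LYT005, 164.0 in LYT015, 255.2 in LYT017 and 231.1 in the library labelled control LYT014. In the libraries labelled YAP-deleted it had 66.9 in LYT006, 68.9 in LYT008, 58.4 in LYT016 and 217.8 in LYT013. Thus 3 libraries stood low together and 6 stood high together, with no value between 68.9 and 164.0. The low libraries were the 3 labelled YAP-deleted whose Yap1 was also low.

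The 2 libraries that took no part in choosing Akap12 were both within the range of the 4 controls. LYT014, labelled control but with low Yap1, lay 0.10 log2-like units above the control mean. LYT013, labelled YAP-deleted but with high Yap1, lay 0.03 above it and 1.22 above the mean of the other 3 YAP-deleted libraries. So Akap12 was high in LYT014, in accord with its label and not its Yap1 level, and high in LYT013, in accord with its Yap1 level and not its label. With 1 library of each kind there is no test.

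Over the 7 libraries Akap12 averaged 214.6 ± 39.6 normalised counts (SD, n = 4) in the controls and 64.7 ± 5.57 (SD, n = 3) after YAP deletion, a 3.32-fold lower level. On the deposited scale, which compresses changes at low counts, the difference was −1.19 ± 0.14 log2-like units (SE). With all 9 libraries as labelled the groups overlapped, and the difference was −0.91 ± 0.25. The recovered counts behind these values ran from 54 in LYT008 to 364 in LYT013. Within library codes 4 to 8 alone (2 control, 2 YAP-deleted), the difference was −1.19. Within codes 13 to 17 it was −0.63 as labelled and −1.24 without LYT013 and LYT014, which leaves 1 YAP-deleted library.

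**Figure D1:**
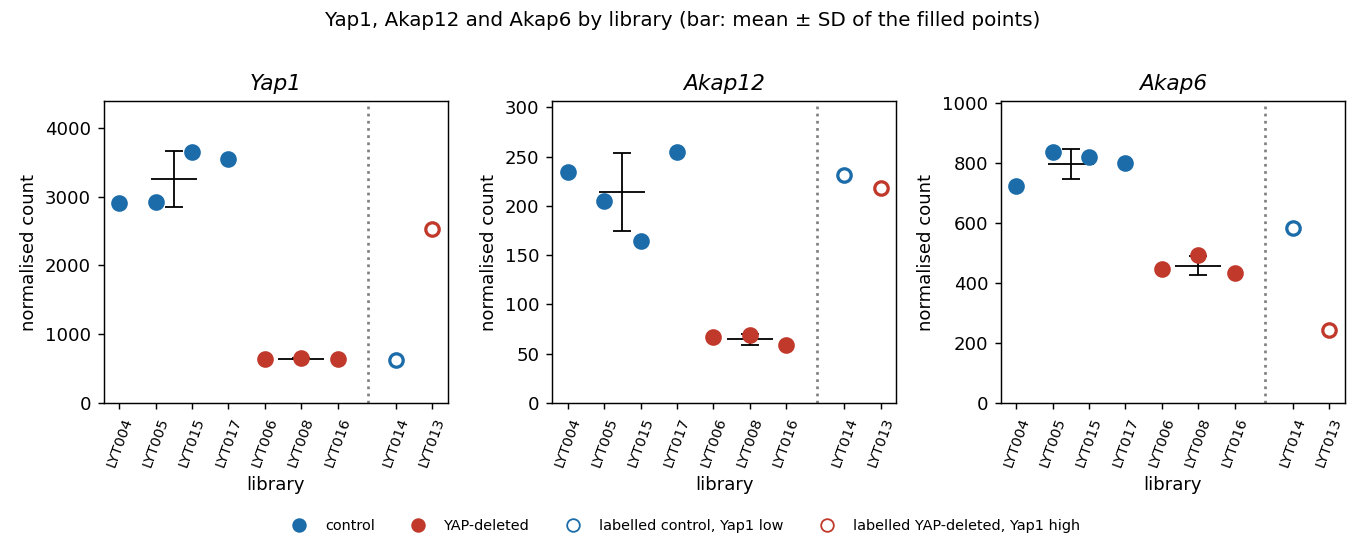
Normalised counts (vertical axis, from 0) of Yap1, Akap12 and Akap6 in each of the 9 libraries (horizontal axis), blue for labelled control and red for labelled YAP-deleted, with bars at the mean ± SD of the filled points. The open points right of the dotted line are LYT014 and LYT013, whose Yap1 goes against the label: Akap12 is at 231.1 and 217.8 there, among the controls, and Akap6 at 585.0 and 242.9.

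Akap6 encodes mAKAP, a scaffold of the nuclear envelope best known from muscle, where it joins PKA to the phosphodiesterase PDE4D and the ryanodine receptor. The gene spans chromosome 12 from 52699383 to 53155599 (GRCm38, plus strand), and its longest annotated transcript, at 14.8 kb, was the longest of the 8. Normalised counts in the control libraries were 725.4 in LYT004, 838.9 in LYT005, 819.8 in LYT015, 801.9 in LYT017 and 585.0 in the library labelled control LYT014. In the libraries labelled YAP-deleted they were 448.6 in LYT006, 493.7 in LYT008, 433.0 in LYT016 and 242.9 in LYT013. Of the 8 genes, Akap6 was the 1 whose groups did not overlap with all 9 libraries as labelled. Over all genes tested, the groups did not overlap for 2.84% in either direction and for 1.15% with the YAP-deleted libraries lower, and 7 of the 9 libraries had been used to choose Akap6.

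The 2 libraries with Yap1 against the label did not place Akap6 where they placed Akap12. LYT014 lay between the groups, 0.41 log2-like units below the mean of the 4 controls and 0.32 above that of the 3 YAP-deleted libraries. LYT013 lay below all others, 0.78 under the mean of the 3 YAP-deleted libraries, although its Yap1 was high. Over the 7 libraries Akap6 averaged 796.5 ± 49.8 normalised counts (SD, n = 4) in the controls and 458.4 ± 31.5 (SD, n = 3) after YAP deletion, which was 1.74-fold lower. On the deposited scale this came to −0.73 ± 0.09 log2-like units (SE). As labelled it was −0.84 ± 0.18. Within library codes 4 to 8 the difference was −0.66, and within codes 13 to 17 it was −1.03 as labelled and −0.82 without LYT013 and LYT014.

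The values behind the choice of both genes are those of limma, a linear model with moderated variances, at a Benjamini-Hochberg adjusted p of 0.05 over the 16372 genes of the 7-library fit. Of these, 11 genes were called (0.0672%), 8 of them lower (0.0489%), and 6.41% had an unadjusted p under 0.05. The groups of these 7 libraries did not overlap for Akap12 and Akap6 among the 8 genes, and for 3.66% of all genes with the YAP-deleted libraries lower. By adjusted p, Akap12 stood at 0.0326 and Akap6 at 0.0332, the last gene inside the threshold, and Ptprf at 0.0525 was the first outside. Nothing is read from these figures for the 2 genes, since they made the choice. With the 9 libraries as labelled, limma called 0 of 17203 genes (0%), as did limma voom on the recovered counts, and 7.22% had an unadjusted p under 0.05 by limma.

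**Figure D2:**
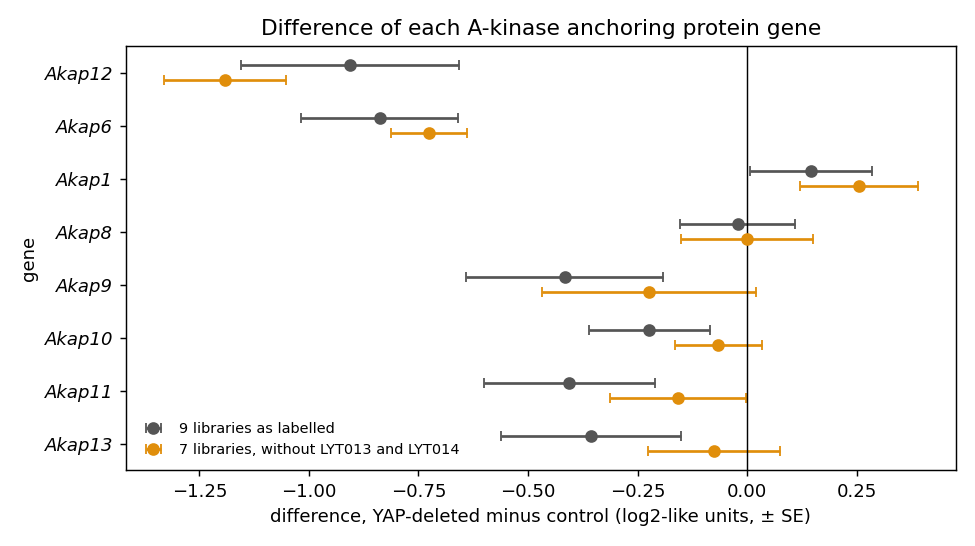
Difference between groups (YAP-deleted minus control, log2-like units, horizontal axis) for each of the 8 genes (vertical axis), with bars of ± 1 SE, for the 9 libraries as labelled (grey) and the 7 without LYT013 and LYT014 (orange). Akap12 and Akap6, chosen for this contrast, lie at −1.19 and −0.73 in the 7 libraries, and the other 6 lie between −0.22 and 0.26.

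None of the other 6 genes passed the test. In the 9 libraries as labelled, 0 of 6 were called by limma or by limma voom, and 0 had an unadjusted p under 0.05 by either. The same counts held in the 7 libraries, where the smallest limma adjusted p was 0.799. The unadjusted count, unlike the adjusted one, moved with single libraries and covariates. With 9 libraries it became 4 without LYT016 (Akap9, Akap10, Akap11 and Akap13, all lower), 3 without LYT005 (Akap9, Akap11 and Akap13, lower) and 2 with the cell cycle mean as covariate (Akap9 and Akap11, lower). Without LYT016, 1936 of all 16822 genes also passed that level. Without LYT005 it was 1130 of 16915, and with the cell cycle mean 1316 of 17203. In the 7 libraries the count of the 6 became 3 with the cell cycle mean as covariate (Akap9 and Akap11 lower, Akap1 higher). It became 1, Akap1, either with the range of library codes as covariate or without LYT008. Over all genes, 1986 of 16372 passed with the cell cycle mean, 1897 of 16372 with the code covariate and 852 of 16006 without LYT008. No adjusted p of the 6 was under 0.05 in any of these settings. The median difference of the 6 was −0.07 log2-like units in the 7 libraries and −0.29 as labelled, against −0.0045 over all genes tested in either fit. As labelled, 5 of the 6 were negative, against 50.9% of all genes tested. LYT013 was low and LYT014 high for several of them.

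Akap1 anchors PKA at the outer mitochondrial membrane (chromosome 11, 88830792 to 88864586, minus strand). Normalised counts were 425.0, 412.1, 540.0 and 501.0 in control LYT004, LYT005, LYT015 and LYT017, and 670.0, 475.8 and 575.7 in YAP-deleted LYT006, LYT008 and LYT016. LYT014 had 622.7 and LYT013 had 509.8. It was the 1 of the 8 with a positive difference in both fits, at 0.26 ± 0.13 log2-like units (SE, 95% interval −0.05 to 0.56) in the 7 libraries and 0.15 ± 0.14 as labelled (limma adjusted p = 0.799 and 0.735). The groups overlapped in both.

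Akap8 (AKAP95) sits in the nucleus with chromatin (chromosome 17, 32303672 to 32321238, minus strand). It varied least, 1.46-fold between the lowest library (864.9 normalised counts in LYT008) and the highest (1260 in LYT015). Its difference in the 7 libraries was −0.00082 ± 0.15 log2-like units, with a 95% interval of −0.34 to 0.34 (limma adjusted p = 1.00). Its paralog Akap8l is the neighbouring gene on the same strand, with 185 bases between them and no overlap, and reads shared by the paralogs were not measured. Akap8l differed by 0.26 ± 0.17 in the 7 libraries (limma adjusted p = 0.841).

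Akap10 (D-AKAP2) binds both types of PKA regulatory subunit and carries RGS-like domains (chromosome 11, 61871307 to 61930252, minus strand). In 8 libraries it stayed between 443.9 and 555.0 normalised counts, and LYT013 had 312.9. The difference was −0.07 ± 0.10 log2-like units in the 7 libraries (95% interval −0.29 to 0.16, limma adjusted p = 0.949) and −0.22 ± 0.14 with all 9. Labelled groups overlapped in both fits.

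Akap11 (AKAP220) brings PKA together with glycogen synthase kinase 3 and protein phosphatase 1 (chromosome 14, 78492246 to 78536808, minus strand). Among the controls, normalised counts were 2289 in LYT004, 1841 in LYT005, 2766 in LYT015 and 2501 in LYT017, and after YAP deletion 2124 in LYT006, 1743 in LYT008 and 2418 in LYT016. LYT014 was the highest library at 2839 and LYT013 the lowest at 1198. The difference was −0.16 ± 0.15 log2-like units in the 7 libraries (95% interval −0.51 to 0.20, limma adjusted p = 0.913) and −0.41 ± 0.20 as labelled (adjusted p = 0.649).

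Akap13 (AKAP-Lbc) is both an anchor for PKA and an exchange factor that activates RhoA, the GTPase of stress fibres and contraction (chromosome 7, 75455534 to 75754609, plus strand). As for Akap11, LYT014 was the highest library, at 3216 normalised counts, and LYT013 the lowest, at 1289, while the 7 others lay between 1890 and 2735. The difference was −0.08 ± 0.15 log2-like units in the 7 libraries (95% interval −0.42 to 0.27, limma adjusted p = 0.956) and −0.36 ± 0.20 as labelled (adjusted p = 0.649).

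Akap9 (AKAP450) holds PKA at the centrosome and the Golgi (chromosome 5, 3928054 to 4081310, plus strand). It had 1034, 829.1, 1320 and 1225 normalised counts in control LYT004, LYT005, LYT015 and LYT017, and 1015, 595.7 and 1283 in YAP-deleted LYT006, LYT008 and LYT016. LYT014 was highest at 1444, and LYT013, at 654.6, was second to LYT008 from the bottom. The difference was −0.22 ± 0.24 log2-like units in the 7 libraries (95% interval −0.78 to 0.33, limma adjusted p = 0.922). As labelled it was −0.42 ± 0.22 (95% interval −0.91 to 0.08, adjusted p = 0.649), the most negative of the 6. The gene overlaps Cyp51 on the opposite strand, which reached 134.8 normalised counts, and reads of the 2 genes cannot be told apart where counting ignores strand.

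**Figure D3:**
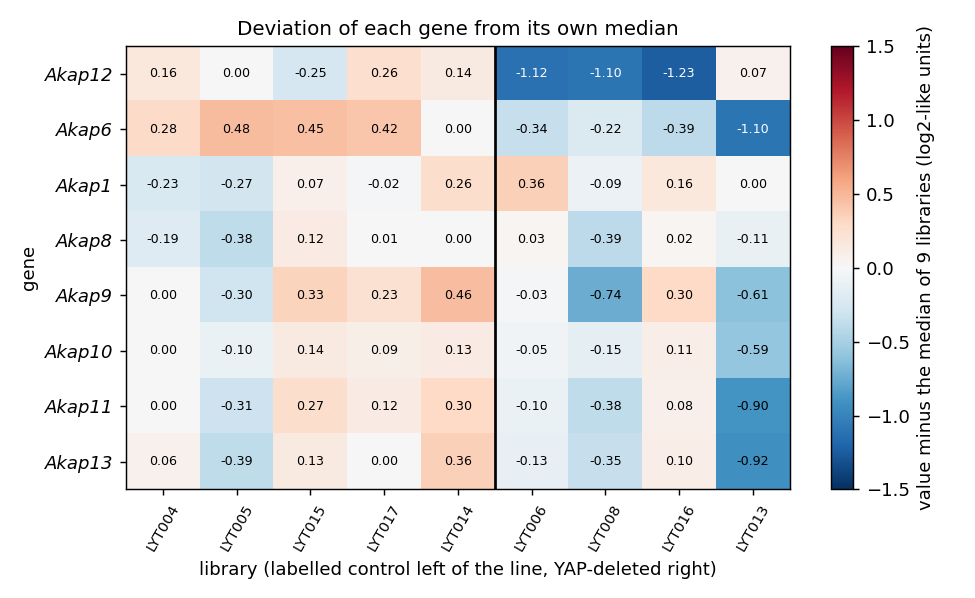
Value of each gene (vertical axis) in each library (horizontal axis, labelled control left of the line and labelled YAP-deleted right of it) minus the median of that gene over the 9 libraries, in log2-like units, coloured blue for lower and red for higher. Akap12 is low in LYT006, LYT008 and LYT016, whereas Akap6, Akap10, Akap11 and Akap13 have their lowest value in LYT013.

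LYT013 was the lowest library for 4 of the 8 genes, Akap6, Akap10, Akap11 and Akap13. Transcript length moved with this for Akap6, Akap11 and Akap13 but not for Akap10. In LYT013 the median tested gene with a longest transcript of 10 kb and over stood 0.57 log2-like units under its own median of the 9 libraries, and the median gene under 2 kb stood 0.24 above. The same medians lay between −0.21 and 0.07 in the other libraries for the long class. Akap6, Akap13, Akap11 and Akap9, with transcripts of 14.8, 12.6, 9.36 and 13.12 kb, stood at −1.10, −0.92, −0.90 and −0.61 in LYT013. Akap10, at 3.87 kb, stood at −0.59, where the median gene of 2 to 4 kb stood at 0.03. Akap12, at 6.20 kb, stood at 0.07. Akap1 and Akap8, at 3.83 and 4.57 kb, stood at 0 and −0.11. The part of transcript length in these levels was not tested. Without LYT013 and LYT014 the difference of Akap6 was −0.73, and those of Akap11 and Akap13 were −0.16 and −0.08.

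**Figure D4:**
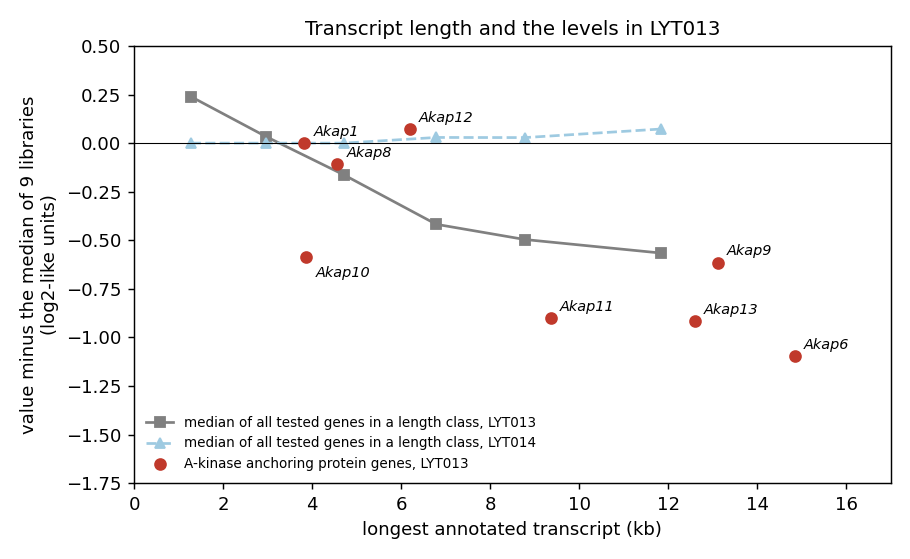
Value in LYT013 minus the median of the 9 libraries (vertical axis, log2-like units) against the longest annotated transcript (horizontal axis, kb) for the 8 genes (red points), with the median of all tested genes per length class in LYT013 (grey squares) and in LYT014 (light blue triangles). The grey line falls from 0.24 for the shortest class to −0.57 for the longest, and Akap12, at 0.07, lies above it. So do Akap1, at 0, and Akap8, at −0.11.

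Per kb of transcript, Akap12 and Akap6 were the least abundant of the 8. With the median protein-coding transcript as length, the mean over the 9 libraries was 27.5 ± 13.3 normalised counts per kb for Akap12 and 61.7 ± 21.6 for Akap6 (SD, n = 9). Akap1 (141.3 ± 23.1) and Akap10 (143.3 ± 22.6) came next and differed by less than their spread, followed by Akap11 at 291.1 ± 70.01. Akap9, Akap13 and Akap8 were higher at 801.9, 1038 and 2317, but these rest on short annotated transcripts (a median of 0.467 kb for Akap8). With the longest transcript they were 79.6, 186.2 and 236.8, and Akap12 and Akap6 were still the lowest, at 26.9 and 40.3. The order among the upper 6 thus depended on the length used.

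Markers of other cell types were set beside Akap12 and Akap6. The summed level of 7 vascular smooth muscle markers was 17946 to 28609 normalised counts in the 4 controls and 11754 to 17360 in the 3 YAP-deleted libraries, with no overlap, and 0 of the 7 were called. It was 40492 in LYT013 and 17489 in LYT014. Without Des, which stellate cells also express, the sum was 11632 to 21796 in the controls and 6110 to 11244 in the YAP-deleted libraries, again with no overlap. Of the 7 markers, 3 (Tagln, Notch3 and Itga7) were lower with no overlap between the groups, as Akap12 and Akap6 were, against 3.66% of all genes. Of the 10 stellate cell markers, 2 (Lhx2 and Hand2) were higher with no overlap. Of the 8 portal fibroblast and mesothelial markers, 1 (Thy1) was lower with no overlap. In either direction the groups did not overlap for 7.59% of all genes. Notch3, a receptor of mural cells, had 2258 to 3017 normalised counts in the controls, 630.8 to 1464 in the YAP-deleted libraries, 2048 in LYT013 and 1075 in LYT014. Tagln and Acta2, which activated stellate cells also express, ranged from 2978 to 20124 and from 430.5 to 4900 over the 9 libraries, Myh11 from 1987 to 3860 and Cnn1 from 0 to 12.8. The 8 endothelial markers summed to 1188 to 3038 in the controls and 1898 to 2243 in the YAP-deleted libraries. They summed to 4000 in LYT013 and 3733 in LYT014, the 2 highest. Most of the sum in LYT013 was 1 gene, Clec4g, at 3086 against 1849 in LYT014. Stab2 and Kdr were at 99.3 and 90.4 in LYT013 and at 408.5 and 482.3 in LYT014. Cell cycle markers (10 genes) differed far more within groups, from 667.5 to 24106 in the controls and from 691.6 to 16284 in the YAP-deleted libraries. They summed to 959.5 in LYT006, 16284 in LYT008 and 691.6 in LYT016. The part of these cell types and of the cell cycle in the levels of Akap12 and Akap6 was not tested.

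The genes most like Akap12 and Akap6 over the 9 libraries were found among 8601 tested genes at or above the median level, by Pearson's r of the deposited values. For Akap12 they were Etfdh (r = 0.93), Magi1 (0.93), Cacna1a (0.91), Mtrr (0.90) and C1rl (0.89). Magi1, which encodes a junctional scaffold, had 324.1 to 363.6 normalised counts in the 3 YAP-deleted libraries and 461.3 to 558.2 in the rest. Etfdh had a narrow range of 599.6 to 693.4. For Akap6 they were Luzp1 (r = 0.99), Ptpn14 (0.97), Pphln1 (0.96), Smc6 (0.96) and Cpt1a (0.96), all 5 with their lowest level in LYT013. Luzp1, an actin and cilium protein, had 1178 normalised counts in LYT013, 1795 to 1906 in the 3 YAP-deleted libraries and 2379 to 2618 in the 4 controls. Without LYT013 the r of Luzp1 with Akap6 was 0.99 and that of Ptpn14 was 0.93. Akap12 and Akap6 had an r of 0.36 with each other. These correlations describe 9 libraries that share their grouping and carry no test.

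The machinery that the anchors serve was then examined through 85 listed genes in 9 lists, of which 77 were tested. Limma called 0 of 77 in the 9 libraries and 0 in the 7, and limma voom also called 0 in each. At an unadjusted p under 0.05 there were 5 of 77 in the 9 libraries and 4 in the 7 by limma, where the shares over all genes were 7.22% and 6.41%. By limma voom there were 4 and 5, with 7.87% and 6.48% over all genes. These counts are near the background. The smallest limma adjusted p was 0.649 with 9 libraries and 0.524 with 7.

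The enzymes and receptors that make cAMP (adenylyl cyclases, the stimulatory G protein and beta-adrenergic receptors) had 5 negative and 8 positive differences among 13 tested in the 7 libraries, with a median of 0.04 log2-like units. Adcy1, a neuronal cyclase, was near the floor, at 27.7 and 28.2 normalised counts in LYT004 and LYT005 and at most 9.42 in the 7 others. Adcy2 and Adcy3 differed by −0.33 ± 0.20 and 0.14 ± 0.10 (SE). None of the 13 passed.

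None of the PKA subunits passed the test. All 4 regulatory subunits were tested, with 2 negative and 2 positive differences and a median of 0.0043 in the 7 libraries. Prkar1a, the subunit with the highest level per kb, averaged 8400 ± 669.3 normalised counts (SD, n = 4) in the controls and 9075 ± 426.2 (SD, n = 3) after YAP deletion. The type II subunit Prkar2b differed by 0.03 ± 0.12 log2-like units and the rarer Prkar1b by −0.33 ± 0.15. The catalytic subunits Prkaca and Prkacb differed by 0.19 ± 0.10 and 0.02 ± 0.08.

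Among the 3 inhibitor peptides of PKA, Pkia had the smallest p of the 77 genes in the 7 libraries. Its normalised counts were 1954, 1937, 1844 and 2209 in control LYT004, LYT005, LYT015 and LYT017, and 1405, 1677 and 1373 in YAP-deleted LYT006, LYT008 and LYT016. The groups did not overlap, as for 7.59% of all genes in either direction and 3.66% with the YAP-deleted libraries lower. LYT014 and LYT013 had 1580 and 1417. The difference was −0.41 ± 0.10 log2-like units (SE) and did not pass (limma adjusted p = 0.524). Pkig and Pkib differed by 0.11 ± 0.11 and −0.12 ± 0.20, and Pkig reached 5932 in LYT013 against 2461 to 3314 elsewhere.

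The phosphodiesterases, which degrade cAMP near the anchors, had 7 negative and 8 positive differences among 15 tested in the 7 libraries (median 0.04). Pde4c averaged 147.6 ± 59.0 normalised counts (SD) in the 4 controls and 312.7 ± 114.9 in the 3 libraries with YAP deleted, and its groups overlapped (limma adjusted p = 0.674). Pde4a and Pde2a differed by −0.21 ± 0.11 and −0.78 ± 0.41 log2-like units (SE). Of 11 partners held by the scaffolds, such as calcineurin, protein kinase C and Src, 8 were negative with a median of −0.04. Prkca, Prkcd and the calcineurin subunit Ppp3cc differed by −0.22 ± 0.13, −0.18 ± 0.10 and −0.20 ± 0.10.

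The CREB factors and cAMP response genes, the nuclear readout of PKA, were evenly divided, with 6 negative and 6 positive differences and a median of 0.02 in the 7 libraries. Creb1, Crtc2 and Crtc3 differed by −0.13 ± 0.10, 0.20 ± 0.11 and 0.16 ± 0.11 log2-like units (SE), and none passed. Among 12 other tested proteins that anchor PKA, 10 were negative, with a median of −0.14, against 51.1% negative and a median of −0.0045 over all genes tested. Pcnt, which encodes pericentrin of the centrosome, averaged 936.1 ± 132.6 normalised counts (SD) in the 4 controls and 701.7 ± 22.4 in the 3 libraries with YAP deleted. Its difference of −0.38 ± 0.11 did not pass (limma adjusted p = 0.610). With all 9 libraries as labelled its groups did not overlap (801.9 to 1115 in control, 544.5 to 727.5 in YAP-deleted). The same held for 1.15% of all genes with the YAP-deleted libraries lower. Acbd3 of the Golgi and Cbfa2t3 differed by −0.19 ± 0.09 and −0.32 ± 0.15. Of the 10 other Akap-named entries listed, 8 were in the table and 5 were tested, and none passed. Akap3 and Akap4, known from sperm, were listed at 0 in every library.

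Pakap, the merged gene of Palm2 and Akap2 on chromosome 4 and 1 of those 5, was divided by library code and not by label. The split by library code was described after its values were seen. Pakap had 989.5 to 1480 normalised counts in the 4 libraries of codes 4 to 8 and 4264 to 8378 in the 5 of codes 13 to 17, a 6.18-fold higher mean. Of all tested genes, 2.92% were higher in each library of codes 13 to 17 than in any of codes 4 to 8, and 3 genes, Pakap included, had a difference at least as large as that of Pakap. Among the 8 genes the same ratio of means was between 0.920 for Akap6 and 1.36 for Akap9. The difference of Pakap between the labelled groups in the 7 libraries was −0.65 ± 0.91 log2-like units (SE). The labels do not say what the ranges of library codes stand for.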

How the data were processed

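RNA was measured by bulk sequencing in 9 libraries of sorted mouse stellate cells (5 labelled control, 4 labelled YAP-deleted). The tools named in the submitters' processing notes are kallisto 0.44.0, sleuth and bcl2fastq 2.20, and the builds are mm10, GRCm38 and GRCh38, without roles. The authors deposited log2-like values after variance stabilisation, 1 per gene name and library, and how they made them was not stated. Per the labels' protocols there was a poly-A and a ribosomal depletion preparation, without saying which library received which. Groups came from the sample titles, and columns were matched by library code, with LYT013.1 taken as LYT013.

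The lowest value, 4.96, stands for 0. Inverting the hyperbolic sine form of the stabilisation gave whole counts to within 0.1 for 100% of the values above it in every library, and these recovered counts divided by their size factor are the normalised counts. Depth per library (14052502 to 31816055 counts) bounds the precision of low genes. Genes exceeding this floor in 4 or more libraries were tested with limma 3.58.1 in R 4.3.3 (mean-variance trend, two-sided, Benjamini-Hochberg adjustment at 0.05 over all genes), on the 9 libraries as labelled and on the 7 without LYT013 and LYT014. The code of the fit was run on simulated counts with known changes. These had no library against its label and no shift with transcript length, and no result here rests on them. Alternatives covered filters, moderation, weights, scaling, transformation, limma voom on the recovered counts (scaled by trimmed means of M values), covariates and omission of each library. Positions and transcript lengths came from GENCODE M21 (GRCm38), and promoters from RefSeq (GRCm38.p6).

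The members and gene lists were chosen with earlier results of these data known. Named were the 8 members, Yap1, up to 3 genes of each list with the smallest p in the 7-library fit, any called list gene, and the 5 genes most like Akap12 and Akap6.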

Additional observations from a re-analysis of the deposited data

Results flagged for a closer look

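Akap12 in the library labelled YAP-deleted LYT013 stood far from its group, at 217.8 normalised counts against 58.4 to 68.9 in the other 3 libraries of that label. The gap to the nearest library was 0.934 of the range of the group. This library is also the one labelled YAP-deleted with a high Yap1 level, 2530 normalised counts. Of 16 combinations of gene and group examined with Dixon's critical value, this was the 1 past it, about the number that a rate of 1 in 20 gives. The 3 low values are also among those by which Akap12 was chosen, so the gap is a description and no test. No test of what sets this library apart was made.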

How the results depend on the processing

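With 9 libraries as labelled, 0 genes were called under each alternative except library codes 4 to 8 alone (4 genes) and the 7-library fit (11 genes). In the 7 libraries the 11 genes became 25 with the range of library codes as covariate and 38 with the cell cycle mean as covariate, and 2 to 10 when single libraries were left out (2 without LYT006). The filter at 3 libraries, and 9 libraries without both LYT013 and LYT014, were added after seeing the data. By adjusted p, none of the 6 other family members was called under any of the 22 alternatives for 9 libraries or the 19 for 7. Akap12 and Akap6 were lower under every alternative. They were chosen as lower in 7 of the same libraries, so this is a description and no test. Akap12 differed by −1.70 with log2 of the normalised count plus 1 and by −1.70 with limma voom, against −1.19 on the compressed deposited scale, and by −1.29 to −1.12 when single libraries were left out. Akap12 met the adjusted threshold that chose it under 12 of 19 alternatives in the 7 libraries and Akap6 under 11. Leaving out any single library except LYT015 ended it for Akap12, and any single library ended it for Akap6. Fewer libraries remained in each such fit, and the difference of Akap6 stayed at −0.77 to −0.69. These counts reuse the values that chose both genes, so they too are a description and no test. The sign of uncalled small differences turned for Akap1 (−0.025 in codes 13 to 17) and Akap8. Akap8 came to 0.0025 with the code covariate and 0.11 in codes 4 to 8, and to −0.094 to 0.072 without single libraries. In the 7 libraries it came to 0.0061 with median centring, 0.048 with the code covariate and −0.090 to 0.14 without single libraries. Akap9 ran from −0.45 to 0.068 and Akap13 from −0.19 to 0.037 without single libraries, both above 0 only without LYT008. The cause of these turns was not tested. No paired analysis was possible because the labels give nothing by which a control library could be paired with a YAP-deleted library. Depth limits Akap12 most, with 54 to 70 recovered counts in the low libraries.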
